A study of Stylophora pistillata with 6 samples.

Results

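Spis374 and Spis375 are a pair of coral gene models with consecutive numbers, both named after the transcription factor Pax3. They are 2 of the 25769 gene models counted in the reef coral Stylophora pistillata. They were taken by name as rows of the deposited count table, because earlier results had shown both at higher levels in day than in night samples. The day and night values of these gene models are therefore given as a description, with no test. The names come from the study, which used the best BLAST hit of each gene model: Spis374 is called PAX3B after a frog protein (Xenopus laevis Pax-3-B) and Spis375 is called PAX3 after a mouse protein. A shared name does not show that either is the only coral counterpart of Pax3, and consecutive numbers were not checked against genome positions.

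Pax proteins are transcription factors that bind DNA through a paired domain, and several of them, Pax3 included, also carry a homeodomain. In vertebrates, Pax3 is known for its role in the neural crest, in pigment cell precursors and in the progenitors of skeletal muscle. Cnidarians have no neural crest, and some of their Pax genes are expressed in nerve cells or sensory structures.

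Coral RNA was measured in 6 libraries, 3 from day samples and 3 from night samples. Both groups were tips of branches, 6 to 10 mm long, cut as microcolonies from 3 syngenic (genetically identical) parent colonies. They had healed for 10 days, in water at 25 °C with a salinity of 38, with light (175 µmol photons m-2 s-1) and dark phases of 12 h each. Day samples were frozen when 1 h of the light phase was left and night samples when 1 h of the dark phase was left, so light and time of day cannot be told apart. No sample was genetically altered, and the labels do not tie a replicate number to a parent colony. The tissue also holds algal symbionts, whose transcripts were not analysed here. Of the genes fixed as a check of the tissue, the skeletal matrix protein galaxin (Spis11963) stood at 54.8 to 129 CPM (reads per library scaled to a common total) over the 6 libraries and the carbonic anhydrase CAH2 (Spis12076) at 177 to 634 CPM. Neither was at 0 in any library. Both were called higher by day in edgeR's test (adjusted p = 0.0281 for galaxin and 0.000105 for CAH2). As means of 3 libraries, galaxin stood at 109 against 61.9 CPM and CAH2 at 588 against 204 CPM. Both names came from the study, which reported CAH2 as changed between day and night. These calls are therefore no independent evidence. The part of galaxin and CAH2 in the results on Spis374 and Spis375 was not tested. Reads that mapped to the coral numbered 1552480 in the shallowest library, day replicate 2, and 6619275 in the deepest, day replicate 3, a ratio of 4.26.

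For PAX3, the study also designed a pair of primers, each 22 bases long, around a product of 110 bases. In its qPCR of other day and night samples, PAX3 was higher by day, by less than in its sequencing. The change fell short of the size the study required, and PAX3 was not among the genes it kept. The primers are shown with the product because it is the sequence at hand for this gene. The product is printed on the strand complementary to the listed one, 5′ to 3′, so that it begins with the reverse primer.
PAX3 forward primer: actgttcgtctcgtccgtttta
PAX3 reverse primer: aagaacttggggaaagattgga
PAX3 product, complementary strand: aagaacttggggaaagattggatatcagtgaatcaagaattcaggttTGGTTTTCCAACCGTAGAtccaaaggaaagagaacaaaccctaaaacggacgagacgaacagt
The capitals mark 18 bases, from base 48 to base 65 of the printed strand, that match in 6 codons a pattern typical of the third helix of homeodomains, the helix that contacts DNA. The pattern leaves one of its residues free, since homeodomains differ there. They lie in the third reading frame of this strand, which holds 0 stop codons. Of the 6 reading frames of this product, 2 held no stop codon. The letters TGGTTTTCCAACCGTAGA were found on either strand in 1 of the 25 products listed by the study, that of PAX3. They were taken from this product, so nothing is read from that search. The protein pattern, searched in all 6 reading frames of the 25 products, was also found in 1, that of PAX3. Whether any other product comes from a homeodomain gene was not tested, so nothing is read from this search either. The sequences of the gene models themselves were not used here, so it was not tested which of Spis374 and Spis375 the primers would amplify.

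The deposited values of both gene models hold reads of other genes. Where an ID begins longer IDs, its row also counts their reads: that of Spis374 includes the reads of 10 gene models from Spis3740 to Spis3749, and that of Spis375 those of 10 from Spis3750 to Spis3759. These reads were subtracted to recover the reads of the gene models themselves. For Spis374 (PAX3B) the deposited values were 227, 161 and 582 in day replicates 1, 2 and 3, and 90, 67 and 69 in night replicates 1, 2 and 3. The recovered reads were 162, 123 and 488 by day and 28, 25 and 27 by night. The longer IDs made up 20.3% of the deposited value over the day libraries and 64.6% over the night libraries.

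For Spis375 (PAX3) the deposited values were 2130, 928 and 4174 by day and 2343, 1382 and 1637 by night. The recovered reads were 362, 117 and 633 by day and 51, 28 and 36 by night. Here the longer IDs made up 84.6% of the deposited value by day and 97.9% by night, so nearly all of the deposited night value belonged to other gene models. As deposited, the day and night values of Spis375 overlapped, and the recovered reads did not.

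**Figure D1:**
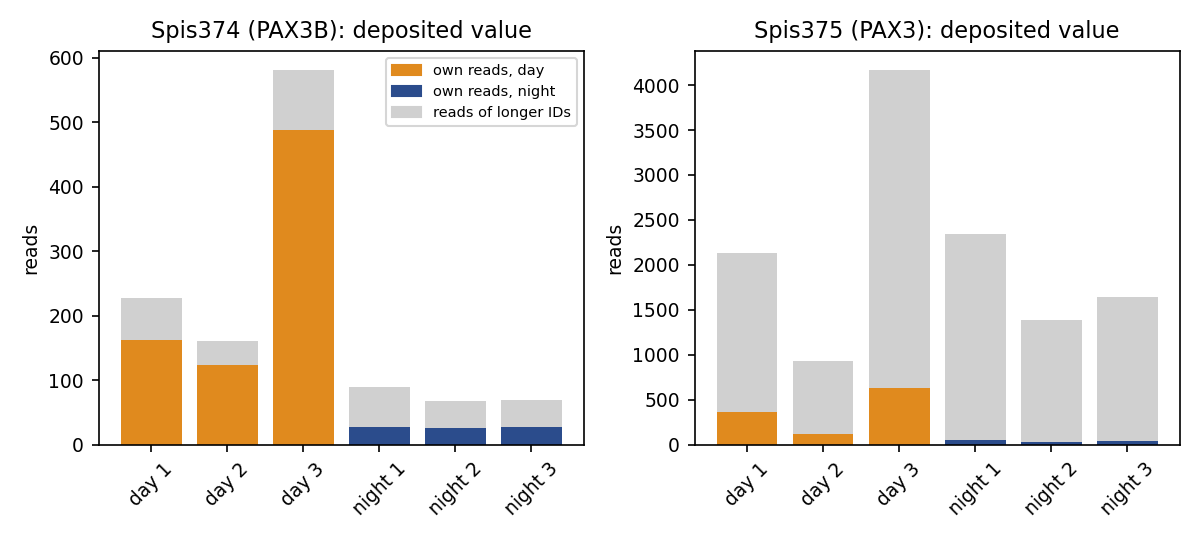
Deposited value of Spis374 (left) and Spis375 (right) in reads for each of the 6 libraries, split into the reads of the gene model itself (orange by day, blue by night) and the reads of longer IDs (grey). For Spis375 in day replicate 1, 362 of 2130 reads were its own, and in night replicate 1, 51 of 2343 were.

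None of the 20 gene models whose reads were subtracted was called different between day and night in edgeR. Of the 24180 gene models with a read, 161 (0.666%) were called different between day and night, 62 higher (0.256%) and 99 lower (0.409%) by day. A call is an adjusted p under 0.05 (edgeR's quasi-likelihood test, Benjamini-Hochberg adjustment). Spis374 and Spis375 were among the 62, which is how they came to be chosen. With a block for the replicate number, edgeR called 209 higher and 200 lower. DESeq2 called 64 higher and 85 lower without this block, and 56 and 71 with it. Of the 10 longer IDs of Spis374, 0 passed with edgeR, which tested all 10, and 0 had an unadjusted p under 0.05 in edgeR or DESeq2. DESeq2 gave an adjusted p for 3 of them and limma-voom for 2, and 0 of these passed. Of the 10 longer IDs of Spis375, 0 passed with edgeR, 0 of the 9 with an adjusted p in DESeq2 and 0 of the 9 in limma-voom. An unadjusted p under 0.05 was found for 2 of them in each of these tools. Over all 24180 gene models with a read, edgeR gave an unadjusted p under 0.05 for 1294.

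Most of the reads subtracted from Spis375 came from a few gene models. Spis3758 held 24.7% of them, and its level was 144 ± 8.72 CPM (SD, n = 3) in day samples and 153 ± 7.74 CPM (SD, n = 3) in night samples. Spis3756 held 23.3%, and stood at 123 ± 19.6 CPM (SD, n = 3) in day and 176 ± 19.8 CPM (SD, n = 3) in night samples, with a log2 difference of -0.52 ± 0.19 (standard error) and an adjusted p of 0.565 from edgeR. The files give these gene models no name. Among the longer IDs of Spis374, Spis3747.t1 held 35.6% of the subtracted reads and Spis3745 held 24.2%, at 122 and 83 reads over the 6 libraries. The 9 longer IDs of Spis375 with at least 60 reads had log2 fold changes, day minus night, from -0.52 to 0.46 with a median of -0.21. Over the 17473 gene models with at least 60 reads the median was 0.01.

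Levels are given in CPM after scaling by edgeR's TMM method, from the recovered reads. Spis374 (PAX3B) stood at 58.0, 78.8 and 71.8 CPM in day replicates 1, 2 and 3, and at 9.06, 13.1 and 10.6 CPM in night replicates 1, 2 and 3. The lowest day library was 4.44 times the highest night library, and the groups did not overlap. The day mean was 69.5 ± 10.6 CPM (SD, n = 3) and the night mean 10.9 ± 2.02 CPM (SD, n = 3), a log2 fold change of 2.69 with a standard error of 0.23, or 6.43-fold. In bulk tissue, fewer cells that express a gene and less RNA per cell cannot be told apart.

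Spis375 (PAX3) stood at 130 CPM in day replicate 1, 75.0 in day replicate 2 and 93.1 in day replicate 3. In night replicates 1, 2 and 3 it stood at 16.5, 14.6 and 14.1 CPM. The lowest day library was 4.54 times the highest night library, so these groups did not overlap either. Its day mean was 99.2 ± 27.8 CPM (SD, n = 3) and its night mean 15.1 ± 1.27 CPM (SD, n = 3), with a log2 fold change of 2.72, a standard error of 0.22 and a fold of 6.57. Every day library lay above every night library for 5.05% of all gene models with a read, and nothing is read from the separation here because this contrast chose the gene models.

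The depth sets a counting error for each value. The exact Poisson interval at 95% ran from 49.4 to 67.6 CPM for the lowest day value of Spis374 and from 8.45 to 19.3 CPM for its highest night value. For Spis375 the lowest day value had an interval of 62.0 to 89.9 CPM and the highest night value one of 12.3 to 21.7 CPM. These intervals cover counting alone, since reads copied by PCR are not independent molecules. By day the replicates were spread more widely than counting gives: the SD was 15.3% of the mean for Spis374 and 28.0% for Spis375, against counting errors of 7.38% and 6.55%. By night the SD was 18.5% and 8.40% of the mean, below the counting errors of 19.4% and 16.6%, so spread between night samples was not detectable at this depth.

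**Figure D2:**
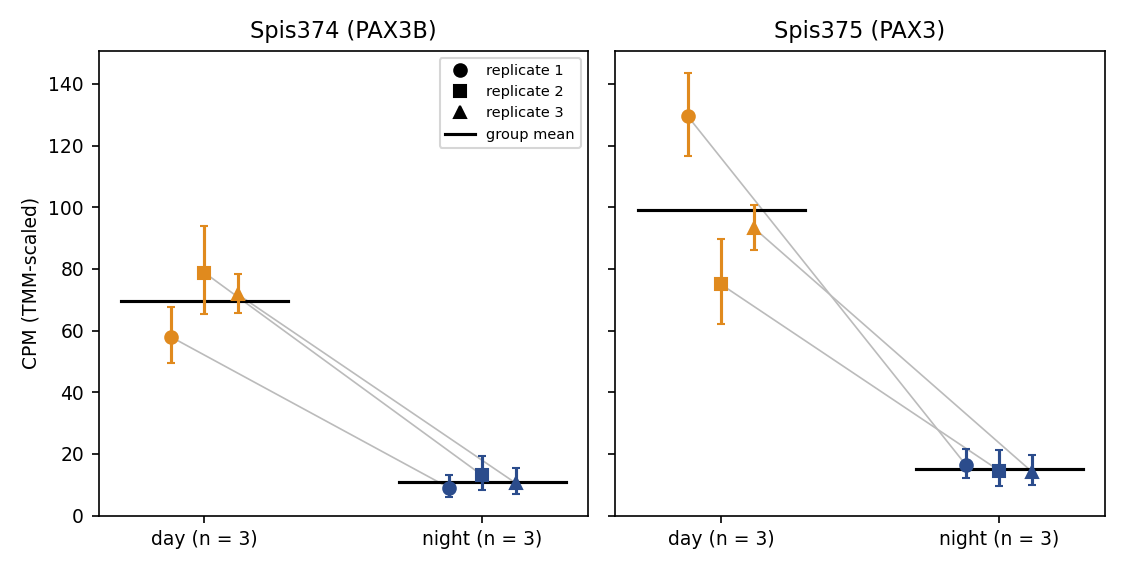
Level of Spis374 (left) and Spis375 (right) in CPM for each library, by day (orange) and night (blue), with bars for the exact Poisson interval at 95%, black lines for group means and grey lines joining libraries with the same replicate number. Spis374 ran from 58.0 to 78.8 CPM by day and 9.06 to 13.1 by night, and Spis375 from 75.0 to 130 CPM by day and 14.1 to 16.5 by night.

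Within each replicate number the day library was above the night library for both gene models. For Spis374 the ratio of day to night was 6.40, 6.04 and 6.79 for replicates 1, 2 and 3. For Spis375 it was 7.85, 5.13 and 6.61. The ratios of Spis374 lay closer together than those of Spis375, but each divides by a night value of 25 to 51 reads. This contrast was not tested against counting error, so nothing is read from it.

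The fold changes of the gene models, 6.43 and 6.57, were close to each other, and by day the gene models ranked the libraries differently. Day replicate 1 was the lowest day library for Spis374 and the highest for Spis375. Day replicate 2 was the highest for Spis374 and the lowest for Spis375. On the log2 scale, day replicates 1 and 2 deviated from the day mean by -0.25 and 0.19 for Spis374 and by 0.42 and -0.36 for Spis375. In day replicate 3 both lay near the mean, and the night deviations are not read because night spread was not detectable. Added together, the gene models gave 187, 154 and 165 CPM by day and 25.6, 27.7 and 24.7 CPM by night. This sum had an SD of 10.2% of its mean by day, smaller than that of either gene model.

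The gene models were then set against each other within each library, as the share of Spis375 in the reads of both. This share does not depend on the size of the library, and its absolute level depends on the lengths of the gene models, which were not used here, so only its differences between libraries are read. The share was 69.1% of 524 reads in day replicate 1, 48.8% of 240 reads in day replicate 2 and 56.5% of 1121 reads in day replicate 3. At night it was 64.6% of 79 reads in replicate 1, 52.8% of 53 reads in replicate 2 and 57.1% of 63 reads in replicate 3. The exact Clopper-Pearson intervals at 95% were 64.9 to 73.0%, 42.3 to 55.3% and 53.5 to 59.4% by day. Day replicate 1 thus lay above both other day libraries beyond counting error.

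No difference in this share between day and night was detected. The means were 58.1 ± 10.3% (SD, n = 3) by day and 58.2 ± 5.93% (SD, n = 3) by night, a difference of -0.076 percentage points (p = 1, exact permutation test, two-sided, where 3 against 3 can give no p below 0.1). Leaving out 1 library at a time moved the difference between -5.57 points, without day replicate 1, and 4.60 points, without day replicate 2, so the data do not fix its sign. The share was highest in replicate 1 and lowest in replicate 2 by day and by night alike. Libraries with the same number differed by 4.53, -4.08 and -0.68 points, day minus night, whereas day replicates 1 and 2 stood at 69.1% and 48.8%. The night intervals, 53.0 to 75.0%, 38.6 to 66.7% and 44.0 to 69.5%, overlapped each other, so the night order is not separable from counting error. It was not tested whether reads that match both gene models, if there are any, were counted for either or for both, and the way the alignment treated such reads is not given in the sources used here.

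**Figure D3:**
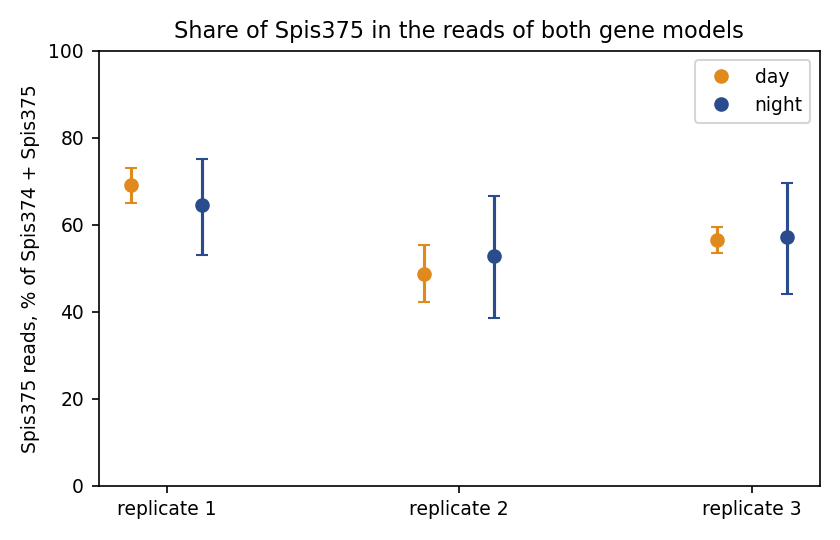
Reads of Spis375 in percent of the reads of Spis374 and Spis375 together, for day (orange) and night (blue) libraries by replicate number, with bars for the exact Clopper-Pearson interval at 95%. The day and night values of a replicate number lay within 4.53 points of each other, and day replicate 1 (69.1%) stood above day replicates 2 (48.8%) and 3 (56.5%).

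Gene models with nearby numbers were examined as a list not picked for how they moved: the 20 gene models with the 10 numbers below Spis374 and the 10 above Spis375, of which 19 had a read. Of these 19, 0 passed the test in edgeR, with or without the replicate block. Without the block, 0.666% of all gene models with a read passed. With it, 209 higher and 200 lower of the 24180 did. DESeq2 gave an adjusted p for 15 of them and limma-voom for 14, and 0 of these passed. An unadjusted p under 0.05 was found for 0 of them in edgeR, 1 in edgeR with the replicate block, 0 in DESeq2 and 1 in limma-voom. Over all 24180 gene models with a read, edgeR without the block gave one for 1294. The 14 with at least 60 reads had log2 fold changes, day minus night, from -0.67 to 0.40 with a median of -0.05. The log2 fold changes of Spis374 and Spis375, at 2.69 and 2.72, lay above that range. Both were chosen for being higher by day, so nothing is read from this position.

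The numbers directly on either side were expressed at low levels. Spis373 had 2, 1 and 7 reads by day and 1, 8 and 5 reads by night, and its log2 fold change was -1.17 with a standard error of 0.83 (adjusted p = 0.997 from edgeR). Spis376 had 8, 8 and 36 reads by day and 21, 6 and 17 reads by night, with a log2 fold change of -0.34 and a standard error of 0.44 (adjusted p = 0.997 from edgeR). Both standard errors were larger than those of Spis374 and Spis375. The files give no name for these gene models.

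**Figure D4:**
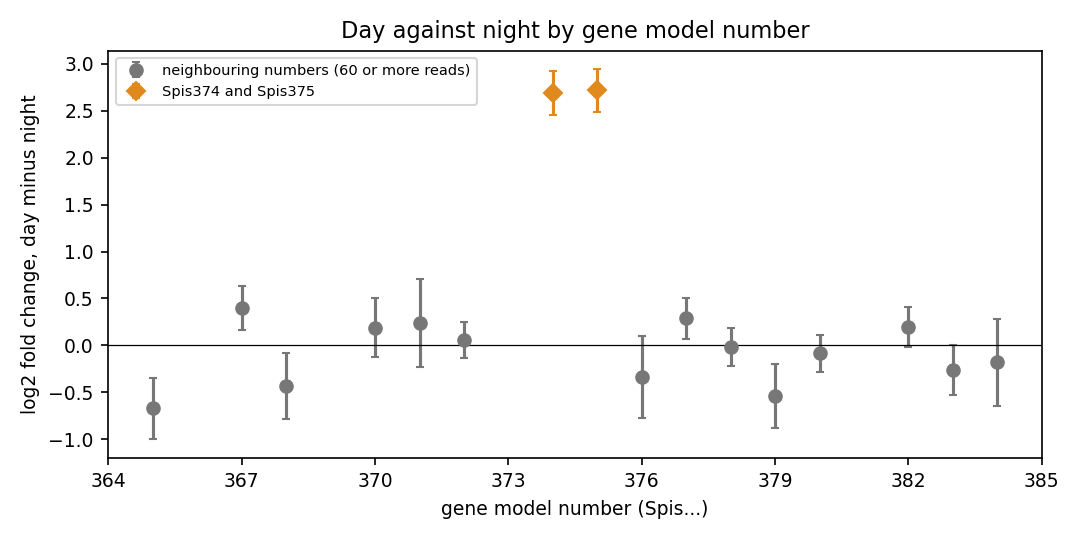
Log2 fold change, day minus night, with its standard error, against gene model number, for Spis374 and Spis375 (orange) and the 14 gene models with nearby numbers and at least 60 reads (grey). The grey points lay between -0.67 and 0.40, and Spis374 and Spis375, which were chosen on this contrast, at 2.69 and 2.72.

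Among the transcription factors that the study named, Spis374 and Spis375 stood in a group with nearly the same fold change. All 16 were chosen on this contrast, so their directions are no evidence. The other 14 had log2 fold changes, day minus night, from -7.35 for HLF (Spis1683) to 3.82 for HEY (Spis21953), with a median of 1.47. HLF is a leucine zipper protein. HEY is a transcriptional repressor whose gene is a target of the Notch pathway in vertebrates and flies. Ordered by fold change, PAX3 was the third and PAX3B the fourth. Next to them were ETS1B (Spis18634) at 2.82 with a standard error of 0.40, ETS2 (Spis5906) at 2.68 with a standard error of 0.25 and EGR1B (Spis4141), an immediate early zinc finger factor, at 2.65 with a standard error of 0.25. The neighbours of PAX3 and PAX3B in this order differed from them by less than 1 standard error.

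The gene models most like each of them were sought over the whole profile of 6 libraries. Likeness was the root mean square difference of log2 CPM, each gene model centred on its own mean, among the 17472 others with at least 60 reads. This measure includes the day to night difference on which both were chosen, so it favours gene models with a similar fold change. The 3 nearest to each had log2 fold changes from 2.48 to 2.76. Nearest to Spis375 (PAX3) were ETS2 (Spis5906) at 0.21, the CRY1 gene model Spis15188.t1 at 0.31 and the CRY1 gene model Spis11906 at 0.34. Cryptochromes are light receptors or clock repressors, depending on the animal. Spis374 ranked 4 in this list, at 0.41. Nearest to Spis374 (PAX3B) were EGR1B (Spis4141) at 0.20, ETS2 (Spis5906) at 0.25 and CRY1 (Spis11906) at 0.27, and Spis375 ranked 7.

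The values of the nearest gene models are given by library. ETS2 (Spis5906) had 52.6, 48.1 and 52.4 CPM in day replicates 1, 2 and 3 and 8.74, 8.36 and 6.66 CPM in night replicates 1, 2 and 3. It was the nearest to Spis375 and second nearest to Spis374, with day values close together. EGR1B had 167, 338 and 256 CPM by day and 30.1, 45.4 and 45.8 CPM by night, lowest by day in replicate 1, as Spis374 was. CRY1 (Spis11906) had 1090 CPM in day replicate 1, 1343 in day replicate 2 and 1139 in day replicate 3. It was highest by day in replicate 2, where Spis374 was highest and Spis375 lowest, though it was among the 3 nearest to both. Counting intervals do not fix the day order of Spis374, nor that of day replicates 2 and 3 for Spis375. On this measure, which the day to night difference enters, the 3 nearest to each had names other than PAX3. The rank of Spis374 for Spis375 was 11 without night replicate 3 and between 4 and 6 when another library was left out.

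**Figure D5:**
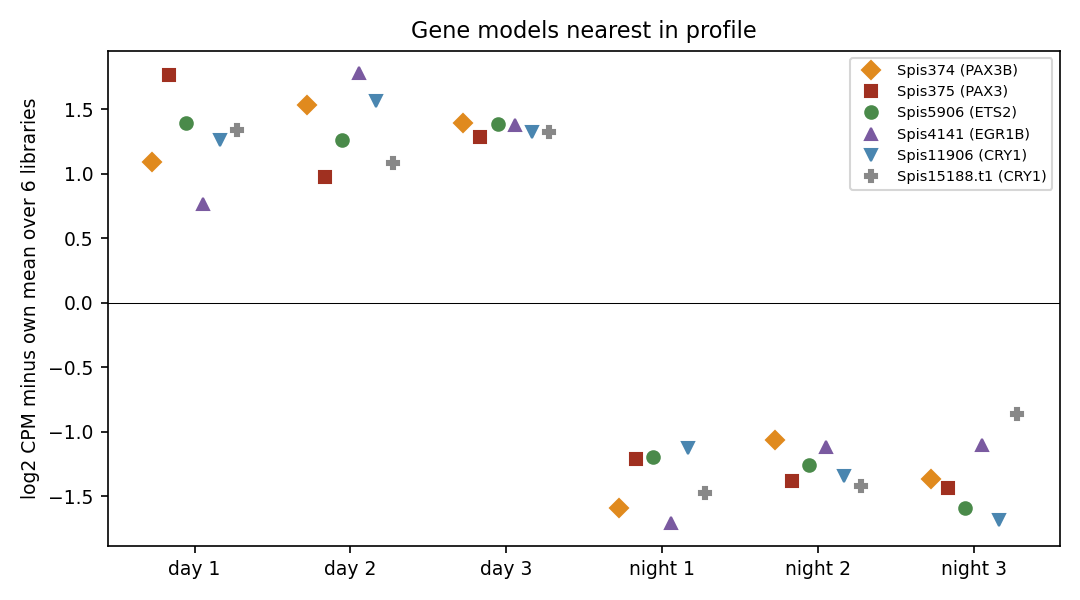
Log2 CPM of Spis374, Spis375 and the gene models nearest to them in profile, each minus its own mean over the 6 libraries, by library. All 6 gene models lay above their mean in each day library and below it in each night library, and in day replicates 1 and 2 Spis375 and Spis374 lay on opposite sides of ETS2.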

How the data were processed

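Poly(A) RNA of branch tips was sequenced by ligation on a SOLiD 3 instrument. The authors mapped each colorspace read on its own with Bowtie, whose version is 1.2.3 according to the submitters' processing notes, against 1 coding sequence per gene model, the longest, and counted reads with their Python script. The deposited counts are whole numbers, not normalized or pooled. Subtracting the reads of longer IDs, beginning with the longest, changed 2371 gene models (9.20%) and left 0 values below 0.

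Day was compared with night by edgeR 4.0.16 in R 4.3.3 (TMM, robust quasi-likelihood F test, two-sided, Benjamini-Hochberg adjustment over 24180 gene models with a read; the 1589 without a read were removed). The standard error is the log2 fold change divided by the square root of F. DESeq2 1.42.0 and limma 3.58.1 (voom) were alternatives, with other scalings and filters, a replicate block, thinning and leaving out each library. The test was tried on simulated data. Tables and figures used Python 3.11.15, scipy 1.17.1, Biopython 1.88 and matplotlib 3.10.9. Likeness used a prior count of 2.

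Deviations from group means over 14262 gene models with at least 10 reads in each library correlated at 0.24, 0.19 and 0.37 for same-numbered libraries of day and night, each over 0.1, and at -0.28 to 0.09 for different numbers. The numbers were therefore taken to pair the samples in the alternatives with a replicate block and in the sign-flip test. The main fit, its calls and the permutation test did not use this pairing. The labels do not say whether samples came from separate colonies, so p-values reflect the spread among these samples alone, which may be technical. Members and lists were chosen with earlier results of these data known. Named gene models were the members, the adjacent numbers, the longer IDs with most reads, the nearest profiles and the ends of the list of transcription factors. ETS1B, Spis5906 and EGR1B were named in that list after their values were seen. The study's own fold changes and p-values were not used, apart from the outcome of its qPCR for PAX3. Of its supplementary tables only names and primer sequences were used.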

Additional observations from a re-analysis of the deposited data

How the results depend on the processing

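The log2 fold changes of Spis374 and Spis375 moved by less than the spread between replicates under 15 of 16 alternatives each, the replicate block in edgeR (2.68 and 2.72) and in DESeq2 (2.68 and 2.70) included, and ran from 2.56 to 2.82 for Spis374 and from 2.48 to 2.87 for Spis375 when 1 library was left out. The exception was the values as deposited, at 1.57 for Spis374 and -0.10 for Spis375, which hold the reads of longer IDs by construction. The number of gene models called higher and lower by day, 62 and 99, was 26 and 53 with limma-voom, 209 and 200 with the replicate block in edgeR, and 32 to 128 and 62 to 105 when 1 library was left out. The count higher by day was 128 without day replicate 3, 33 without night replicate 1 and 32 without night replicate 2. The number of called gene models among the neighbouring numbers was 0 under all 16 alternatives run, some of which tested fewer of them. In the values as deposited, which hold the reads of longer IDs, the difference in the share of Spis375 was -8.09 points. Its p was 0.1 (exact permutation test), the lowest that 3 against 3 can give. From the recovered reads, the difference was 0.013 as a log2 ratio of reads (p = 1, exact permutation test). It was -5.57 to 4.60 points when 1 library was left out. With libraries of the same number as pairs, a replicate block, it was -0.076 points (p = 1, exact sign-flip test, where 3 pairs can give no p below 0.25). The rank of Spis374 among gene models nearest to Spis375 stayed at 4 under other prior counts, scalings and the lower filter, and was 4 to 11 when 1 library was left out, 11 without night replicate 3. At night, 25 to 51 reads per library limit what can be said of either gene model.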
